A study of Homo sapiens with 11 samples.

Results

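The 9 genes described here encode enzymes that write or erase methyl groups on lysine 9 of histone H3 and lysine 20 of histone H4, and they were examined as loci in the human cell line MDA-MB-231, derived from a triple-negative breast cancer. They were chosen by function and not by a measured value, but with earlier results of these data known. SETDB1, SUV39H2, EHMT1 and EHMT2 were taken as H3K9 writers and KMT5B and KMT5C as H4K20 writers. KDM4A, KDM4B and KDM4C were taken as H3K9 erasers. Each locus was the hg19 span of the gene plus 5 kb on each side, and together the 9 loci were touched by 131 of the 229591 enriched intervals on chromosomes 1 to 22 and X in the 10 deposited lists. Cells without mdig protein (KO) were set against cells with normal mdig protein (WT). Per the labels both came from CRISPR-Cas9 work and grew in the same serum-containing medium with blasticidin, and the labels do not say whether either is 1 clone. Chromatin immunoprecipitation and sequencing was done once per genotype with antibodies against H3K4me3, H3K36me3, H3K9me3, H4K20me3 and mdig itself (antibody MINA, also called RIOX2). The lists hold interval positions only, with no height, and the read depth is unknown, so a covered length in kb or a percentage of the locus is the measurement throughout. With 1 library per antibody and genotype nothing was tested, and no difference has a replicate check.

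As background, the H3K9 methyltransferases carry a SET domain. SETDB1 is brought to zinc finger genes and retroelements by the corepressor TRIM28, SUV39H2 trimethylates H3K9 in constitutive heterochromatin, and EHMT1 (GLP) and EHMT2 (G9a) work as a pair that places mono- and dimethylation. HP1 bound to H3K9me3 recruits KMT5B and KMT5C, which make the higher methylation states of H4K20. The KDM4 enzymes have a JmjC domain, as mdig does, and remove H3K9me3 and H3K36me3. H3K4me3 marks active promoters, H3K36me3 lies over transcribed gene bodies, and H3K9me3 with H4K20me3 marks heterochromatin. The lists describe the chromatin of the genes for these enzymes and not the amount or activity of the enzymes.

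The promoter DNA of the 4 genes on which the results below turn most is shown here, because intervals at their 5′ ends either differed between the genotypes or were nearly all the enrichment the gene had. Each is the 300 bases from 250 before to 50 after the RefSeq start farthest upstream in GRCh38.p14, with every CG dinucleotide in capitals. CG-rich promoters are where H3K4me3 is usually found. The intervals are on hg19, and the sequences were matched to them by gene symbol only.
SETDB1, chr1:150926013-150926312, plus strand: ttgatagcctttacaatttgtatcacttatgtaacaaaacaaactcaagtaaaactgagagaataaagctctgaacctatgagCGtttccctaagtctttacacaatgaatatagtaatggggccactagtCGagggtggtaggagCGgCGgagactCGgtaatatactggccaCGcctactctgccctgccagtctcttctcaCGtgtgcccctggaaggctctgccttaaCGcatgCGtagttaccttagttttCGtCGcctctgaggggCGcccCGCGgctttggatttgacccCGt
KMT5B, chr11:68213599-68213898, minus strand: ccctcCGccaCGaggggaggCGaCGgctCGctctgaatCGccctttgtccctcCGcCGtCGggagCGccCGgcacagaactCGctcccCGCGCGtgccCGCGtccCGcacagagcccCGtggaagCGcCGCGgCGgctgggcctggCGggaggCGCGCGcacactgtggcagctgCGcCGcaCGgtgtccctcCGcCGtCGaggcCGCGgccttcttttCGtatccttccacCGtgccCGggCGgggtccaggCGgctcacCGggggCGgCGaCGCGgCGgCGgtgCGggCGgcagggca
KDM4B, chr19:4968863-4969162, plus strand: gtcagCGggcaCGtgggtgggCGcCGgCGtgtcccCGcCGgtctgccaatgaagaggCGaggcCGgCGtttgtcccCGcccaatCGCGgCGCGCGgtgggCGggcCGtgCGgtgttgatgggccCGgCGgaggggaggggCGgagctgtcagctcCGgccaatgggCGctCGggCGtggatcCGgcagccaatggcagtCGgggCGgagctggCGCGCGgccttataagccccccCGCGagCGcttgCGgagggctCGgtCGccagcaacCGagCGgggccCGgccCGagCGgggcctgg
KDM4C, chr9:6757723-6758022, plus strand: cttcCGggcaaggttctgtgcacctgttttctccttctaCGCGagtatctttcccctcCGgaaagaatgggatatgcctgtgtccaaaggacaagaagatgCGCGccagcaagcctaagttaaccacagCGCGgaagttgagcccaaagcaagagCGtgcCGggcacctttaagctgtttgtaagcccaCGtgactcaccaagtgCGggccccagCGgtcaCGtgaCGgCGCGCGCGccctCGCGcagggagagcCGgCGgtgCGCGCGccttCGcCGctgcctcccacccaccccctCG
SETDB1 had 15 CG dinucleotides, KMT5B 49, KDM4B 43 and KDM4C 29. All 9 genes matched the table and had between 15 and 51, above the median of 14 over its 35116 promoters. At least as many as in SETDB1 were found in 48.9% of them, as in KDM4C in 24.2%, as in KDM4B in 4.98% and as in KMT5B in 1.6%.

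The 9 genes were marked as active genes in both genotypes. An H3K4me3 interval lay within 1 kb of the 5′ end at 9 of 9 loci in KO cells and at 9 of 9 in WT cells. In the genome 85.1% of the 19210 WT H3K4me3 intervals overlapped a KO one. H3K36me3 covered 53.1% to 92.8% of 8 loci in KO cells and 40.5% to 96.1% of the same 8 in WT cells, and KDM4C, at 0% in KO and 1.45% in WT cells, was the exception. No locus differed by 1.5-fold or more in H3K4me3 length (0 of 9 longer in KO, 0 of 9 shorter, with 1 kb added to both lengths). Of the 16704 bins of 50 kb with this mark 6.44% were longer and 20.6% shorter by that measure. For H3K36me3 0 of 9 loci were longer and 1 of 9 was shorter (15.1% and 14.6% of 14842 bins). H3K36me3 came within 1 kb of the 5′ end at 7 of 9 loci in KO and 5 of 9 in WT cells, but within 5 kb at 7 in KO and 7 in WT, and over the 5′ end itself at 1 in KO and 1 in WT. In the genome 42.3% of the WT H3K4me3 intervals overlapped KO H3K36me3 and 39.3% overlapped WT H3K36me3. These genome shares count overlap with any part of an H3K4me3 interval, at a gene start or not. They are not a like measure to the 1-kb window at the 5′ ends. The median log2 KO over WT of the 9 loci was -0.23 for H3K4me3, against -0.17 over the bins, and 0.00 for H3K36me3, against 0.01.

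The H3K4me3 intervals over these 5′ ends had a larger median width than all H3K4me3 intervals. They were not compared with intervals over other gene starts, so the width is not shown to be particular to these genes. The median width at the 9 genes was 9.0 kb in KO and 10.4 kb in WT cells, where all intervals of the genome had medians of 5.2 kb in KO and 5.4 kb in WT. At 6 of the 9 genes the interval was narrower in KO and at 3 wider, and of 15690 one-to-one pairs in the genome 65.6% were narrower and 27.4% wider. The widest lay at EHMT1, with 23.8 kb in KO and 22.6 kb in WT cells, and the narrowest at KDM4C, with 3.6 kb in KO and 4.4 kb in WT cells. The EHMT1 interval began 17.4 kb before the 5′ end in both genotypes. Only 11.4 kb of it in KO and 10.2 kb in WT cells lay inside the locus. The narrowing was largest at EHMT2, where the interval measured 13 kb in KO and 18 kb in WT cells, a ratio of 0.722 beside a genome median of 0.894. The ends that moved at EHMT2 were upstream, at 7.53 kb before the 5′ end in KO and 12.1 kb in WT cells.

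**Figure D1:**
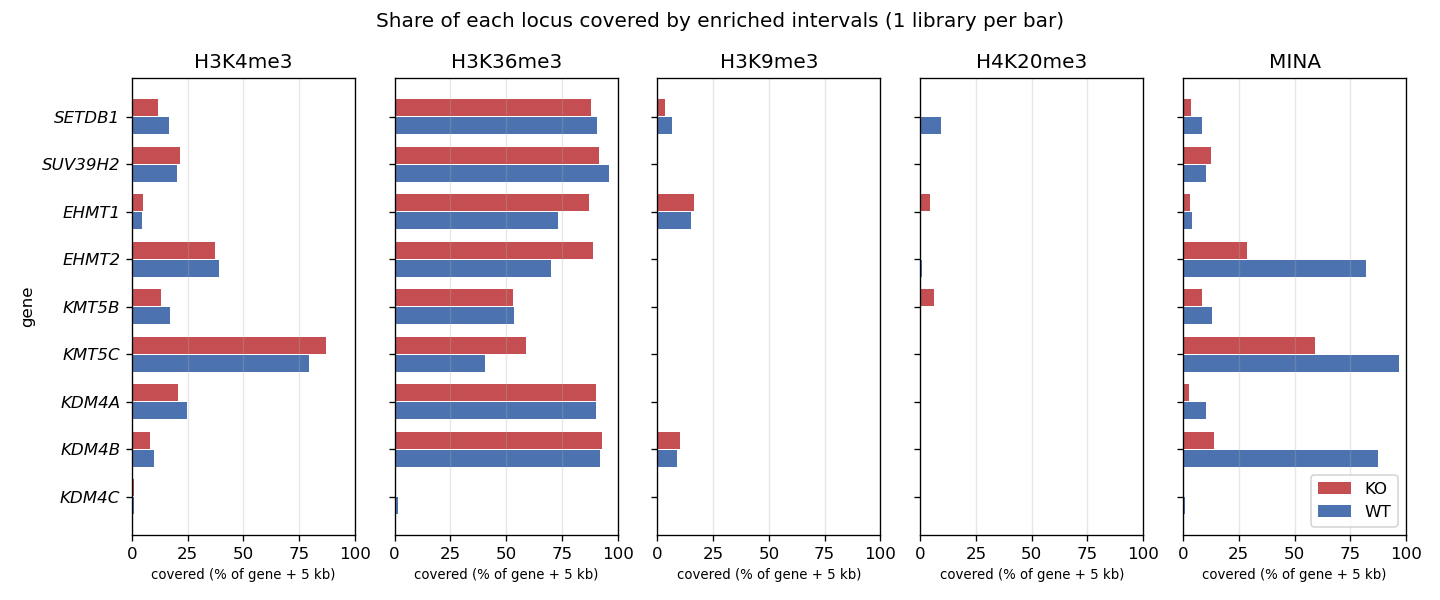
Percentage of each locus (gene plus 5 kb on each side, down the page) covered by enriched intervals of the 5 antibodies (panels), KO in red above WT in blue, 1 library per bar. H3K36me3 covered 53.1% to 92.8% of the 8 loci other than KDM4C in KO and 40.5% to 96.1% of them in WT cells, and MINA covered 13.9% of KDM4B in KO against 87.5% in WT cells.

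SETDB1, the H3K9 methyltransferase that works with TRIM28 (chromosome 1, 150898810 to 150937220, plus strand), carried all 5 signals in WT cells and 4 in KO cells. H3K36me3 covered 42.6 kb in KO and 43.8 kb in WT cells, or 88.0% and 90.5% of the locus. H3K4me3 covered 5.6 kb in KO and 8.02 kb in WT cells, and part of the difference was an interval beyond the 3′ end whose edge reached into the WT window. The promoter-proximal part of the gene was also where this H3K9 writer had heterochromatin marks. H3K9me3 covered 1.6 kb in KO and 3.2 kb in WT cells, and H4K20me3 covered 0 kb in KO and 4.6 kb in WT cells. The H4K20me3 interval ran from 0.409 kb before to 4.19 kb after the 5′ end, over the promoter shown above, and 2.8 kb of it lay on WT H3K4me3 while 1.2 kb lay on WT H3K9me3. H3K4me3 and H4K20me3 intervals thus overlapped here in 1 population of cells, and lists from separate immunoprecipitations cannot tell whether both were on the same chromosomes. With 20 kb on each side the H4K20me3 log2 KO over WT was -0.56, within 1.5-fold, in place of -2.49. KO cells thus had H4K20me3 outside the narrower window.

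SUV39H2 (chromosome 10, 14920780 to 14946310, plus strand), a writer of H3K9me3 in constitutive heterochromatin, had the same set of marks in both genotypes. H3K4me3 covered 7.6 kb in KO and 7.2 kb in WT cells and H3K36me3 covered 32.5 kb in KO and 34.1 kb in WT cells. No H3K9me3 or H4K20me3 interval was listed in either genotype. MINA covered 4.4 kb in KO and 3.6 kb in WT cells, all of it on H3K4me3 in both. With 5 kb on each side this was the one of the 9 loci where MINA was longer in KO cells.

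EHMT1 (GLP; chromosome 9, 140513440 to 140730580, plus strand) held most of the heterochromatin marks of the group, inside the gene and far from its promoter. H3K9me3 covered 37.0 kb in 7 intervals in KO and 34.4 kb in 5 intervals in WT cells, with 30 kb in common. In WT cells 4 of the 5 intervals lay between 80.6 and 117 kb after the 5′ end, and in KO cells 5 of the 7. Most of this H3K9me3 coincided with H3K36me3, at 86.5% of its length in KO and 86.0% in WT cells. H4K20me3 was listed in KO cells only, with 10.0 kb in 2 intervals against 0 kb in WT cells. They ran from 101 to 106 kb and from 110 to 116 kb after the 5′ end (chromosome 9, 140614801 to 140619200 and 140623401 to 140629000). All 10.0 kb lay on H3K9me3 of KO cells and also on H3K9me3 of WT cells. H3K36me3 was longer in KO, with 198 kb against 167 kb in WT cells, and 32.8 kb of it was found in KO only.

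EHMT2 (G9a; chromosome 6, 31847530 to 31865470, minus strand), the partner of EHMT1, is short and was nearly filled by marks of activity. H3K36me3 covered 24.8 kb in KO and 19.6 kb in WT cells, and the KO interval began 3.93 kb upstream of the 5′ end while the WT one began 0.67 kb downstream. With no flank the H3K36me3 log2 KO over WT was 0.05, in place of 0.32. H3K4me3 covered 10.5 kb in KO and 10.9 kb in WT cells. No H3K9me3 was listed. H4K20me3 covered 0 kb in KO and 0.27 kb in WT cells, the edge of an interval upstream. MINA covered 8.07 kb in KO and 22.9 kb in WT cells. The KO interval lay over the promoter, whereas WT cells had both a promoter interval and a second one that began 8.47 kb into the gene and ran beyond its 3′ end.

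KMT5B (SUV420H1; chromosome 11, 67922330 to 67981300, minus strand) had H4K20me3, the kind of mark its enzyme makes, at its own promoter in KO cells. H4K20me3 covered 4.4 kb in KO cells and 0 kb in WT cells, from 4.3 kb before to 0.1 kb after the 5′ end. No H3K9me3 was listed at the locus in either genotype. Of the 4.4 kb, 3.8 kb lay on KO H3K4me3, 3.0 kb on KO MINA and all 4.4 kb on WT MINA and WT H3K4me3. With 20 kb on each side in place of 5 kb the order turned round, at 12.9 kb in KO and 23.1 kb in WT cells, because WT cells had H4K20me3 outside the narrower window. H3K4me3 covered 9.0 kb in KO and 11.9 kb in WT cells, and H3K36me3 covered 36.6 kb in KO and 37.0 kb in WT cells, over the 3′ part of the gene from 24.5 kb after the 5′ end in KO and 23.5 kb in WT. MINA covered 5.8 kb in KO and 9.07 kb in WT cells, with 3.0 kb in common, and without the 5 kb on each side its direction turned round (log2 1.83 in place of -0.57).

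KMT5C (SUV420H2; chromosome 19, 55851220 to 55859490, plus strand), the shorter H4K20 writer gene, had no H3K9me3 or H4K20me3 interval in either genotype. H3K4me3 covered 15.9 kb in KO and 14.5 kb in WT cells, or 87.0% and 79.3% of the locus. H3K36me3 covered 10.8 kb in KO and 7.4 kb in WT cells, with all of the WT length kept. This ratio of 1.46 was the highest of the 8 loci with H3K36me3 in both genotypes. With no flank the H3K36me3 log2 KO over WT at KMT5C was 0.15, in place of 0.49, and at EHMT1 it was higher, at 0.25. MINA covered 10.8 kb in KO and 17.7 kb in WT cells, where it reached across 96.8% of the locus. This difference lay in the 5 kb on each side, and without them the log2 KO over WT was 0.

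**Figure D2:**
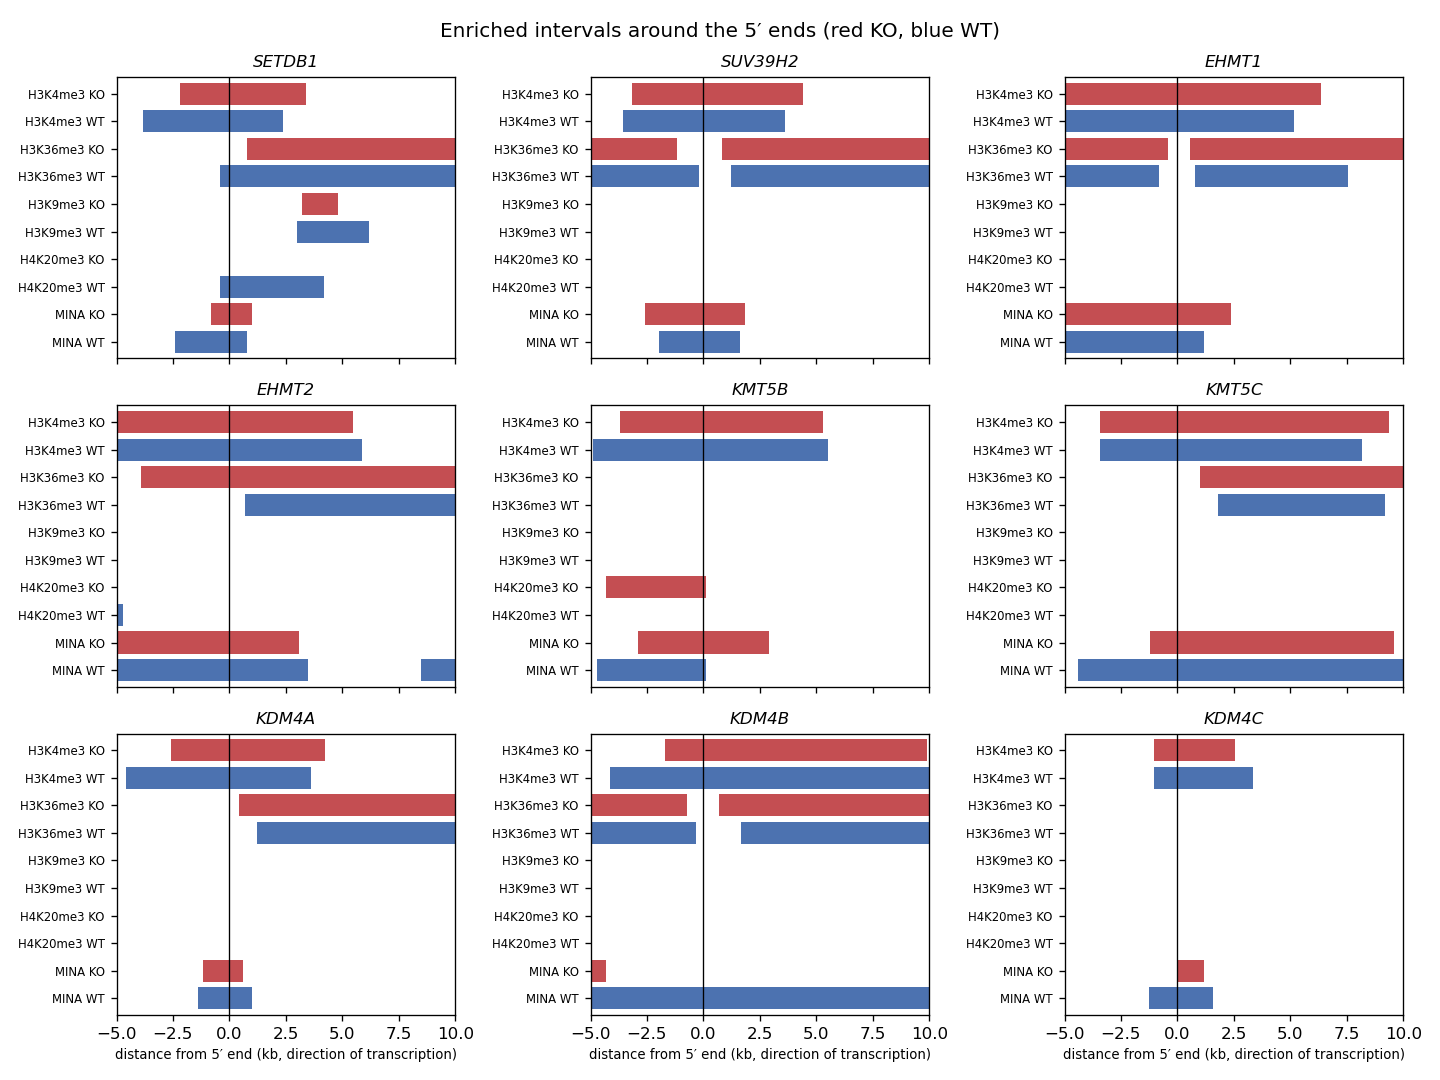
Enriched intervals from 5 kb before to 10 kb after the 5′ end of each gene (horizontal axis in kb, in the direction of transcription), with 1 lane per antibody and genotype, KO in red and WT in blue. H3K4me3 spans all 9 starts in both genotypes, H4K20me3 reaches the start of SETDB1 in WT only and of KMT5B in KO only, and MINA is missing from the start of KDM4B in KO.

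Of the erasers, KDM4A (chromosome 1, 44115790 to 44171190, plus strand) had H3K36me3 over 59.2 kb in KO and 59.2 kb in WT cells. H3K4me3 covered 13.6 kb in KO and 16.2 kb in WT cells, in 1 interval at the 5′ end and 1 near the 3′ end. No heterochromatin mark was listed. MINA covered 1.8 kb in KO and 6.6 kb in WT cells, and the WT interval near the 3′ end had no KO counterpart.

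KDM4B (chromosome 19, 4969120 to 5153610, plus strand) had the largest MINA difference of the 9 loci. MINA covered 27.1 kb in 3 intervals in KO cells and 170.2 kb in 10 intervals in WT cells, which is 13.9% and 87.5% of the locus, a KO over WT ratio of 0.159. In WT cells the first interval ran from 4.92 kb before to 21.9 kb after the 5′ end and the last ended 189 kb after it, beyond the 3′ end. In KO cells the intervals lay from 58.9 to 73.7 kb and from 75.9 to 87.5 kb, with another upstream from 7.12 to 4.32 kb before the 5′ end, and none reached the promoter shown above. Of the 143.8 kb of MINA found in WT only, 92.6% lay on WT H3K36me3 and 10.2% on WT H3K4me3. H3K36me3 itself covered 180.5 kb in KO and 179 kb in WT cells, and H3K4me3 covered 16.2 kb in KO and 19.4 kb in WT cells. H3K9me3, which the encoded enzyme removes, covered 19.4 kb in KO and 17.2 kb in WT cells, with 12.8 kb in common, and no H4K20me3 was listed in either genotype.

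**Figure D3:**
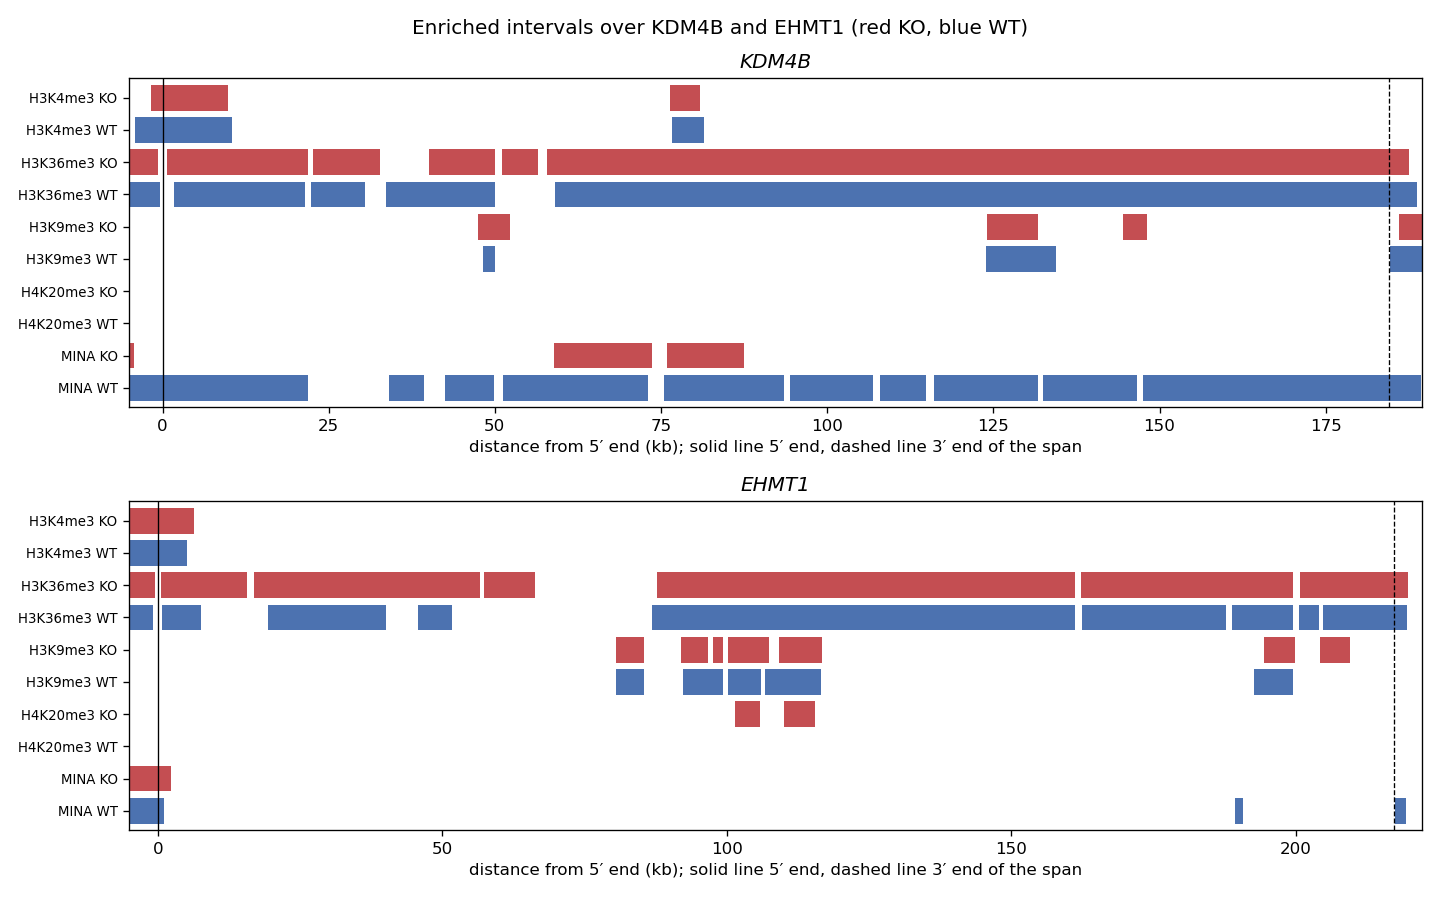
Enriched intervals over KDM4B and EHMT1 (horizontal axis in kb from the 5′ end, solid line at the 5′ end and dashed line at the 3′ end), with 1 lane per antibody and genotype, KO in red and WT in blue. WT MINA runs across KDM4B in 10 intervals where KO has 3, and KO H4K20me3 lies within the H3K9me3 block of EHMT1.

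KDM4C (chromosome 9, 6757640 to 7175650, plus strand), the longest of the genes, had almost nothing beyond its promoter. H3K4me3 covered 3.6 kb in KO and 4.4 kb in WT cells and MINA covered 1.2 kb in KO and 2.8 kb in WT cells, both at the 5′ end. H3K36me3 covered 0 kb in KO cells and 6.2 kb in WT cells, in 1 interval from 225 to 231 kb after the 5′ end. No H3K9me3 or H4K20me3 was listed. The locus therefore had an H3K4me3 promoter in both genotypes and, apart from that 1 interval, no H3K36me3 over its body, unlike the other KDM4 genes, where H3K36me3 covered at least 90.5% of the locus in both genotypes. A mark below the calling threshold of the lists would not be seen.

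The MINA antibody marked the promoters of the group in WT cells and nearly as often in cells without mdig. A MINA interval lay within 1 kb of the 5′ end at 8 of 9 loci in KO and at 9 of 9 in WT cells, KDM4B being the one without it in KO. Among the WT H3K4me3 intervals of the genome 31.8% overlapped KO MINA and 56.8% overlapped WT MINA. These shares count overlap with any part of an H3K4me3 interval and not a 1-kb window, so the measures are unlike. The median width of those H3K4me3 intervals was smaller than that of the ones over these genes. In length MINA was shorter in KO at 8 of the 9 loci, and at 6 of them by 1.5-fold or more: SETDB1, EHMT2, KMT5C, KDM4A, KDM4B and KDM4C. None was longer by that measure. With no flank 3 of 9 were shorter and 1, KMT5B, was longer (log2 1.83), and SETDB1 also changed direction (log2 0.15). At KMT5C the log2 with no flank was 0, and at KDM4C it was -0.25. The number shorter was also 3 with 5 kb added to both lengths or at a fold of 2. In the genome 66.9% of 12296 bins were shorter and 10.6% longer, so the count of 6 of 9 is close to the genome's share. The median log2 KO over WT was -0.79 at the loci and -1.38 over the bins. Summed over the 9 loci MINA covered 68.3 kb in KO and 246 kb in WT cells, a ratio of 0.277, and KDM4B held most of the WT length. The summed ratio therefore rests largely on that 1 locus, with a ratio of 0.159. At the 8 others the ratio ran from 0.273 at KDM4A to 1.22 at SUV39H2. The whole MINA lists covered 35.7 Mb in KO and 120 Mb in WT cells. For the MINA cover and loss at KDM4B a rank was looked up after its values had been seen. Of 6224 bins of 200 kb with MINA, 14 (0.225%) were covered in WT at least to the share of KDM4B, and 15 (0.241%) lost at least as many kb. A bin edge can divide a domain, so these counts are approximate.

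The surroundings of the loci were measured in 1 Mb on each side. Around KDM4B MINA covered 211 kb in KO and 1113 kb in WT cells, a ratio of 0.190 beside 0.159 at the locus, and with 5 Mb on each side the ratio was 0.304. Around EHMT2 the ratio was 0.726 while at the locus it was 0.352. The opposite order was found at SUV39H2, where MINA had a ratio of 0.364 in the surroundings (0.189 with 5 Mb) and 1.22 at the locus. Around SETDB1 the ratio was 0.271 and at the locus 0.448. H3K36me3 had ratios of 1.36 around EHMT1 and 1.19 around EHMT2, beside 1.19 and 1.27 at these loci, so the longer H3K36me3 in KO was shared with their neighbourhoods. Around KMT5C it was 1.15, beside 1.46 at the locus.

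**Figure D4:**
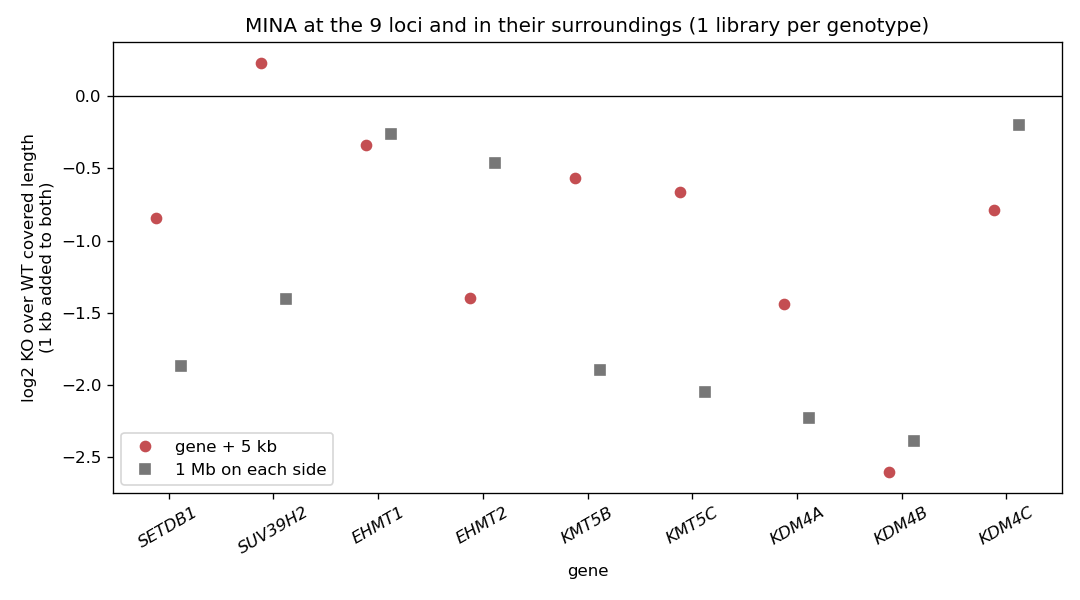
Log2 KO over WT of the MINA covered length (1 kb added to both) at each locus (red circles) and in 1 Mb on each side of it (grey squares), 1 library per genotype. Of the 9 loci, 8 lie below 0 together with their surroundings, and SUV39H2 lies above 0 while its surroundings lie below.

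The heterochromatin marks were listed at fewer of these genes than H3K4me3 and H3K36me3. The share of windows of like size that hold them in the genome was not counted. H3K9me3 was listed at 3 of 9 loci in KO and at the same 3 in WT cells (SETDB1, EHMT1 and KDM4B). Of these 3, 0 were longer in KO by 1.5-fold and 1, SETDB1, was shorter, where 29.5% and 43.5% of 28293 bins with this mark were longer and shorter. The call at SETDB1 ended with 5 kb added to both lengths or at a fold of 2, where 0 loci were shorter. H3K9me3 lay within 1 kb of 0 of 9 5′ ends in KO and 0 of 9 in WT cells, while 6.81% of the WT H3K4me3 intervals of the genome overlapped KO H3K9me3 and 5.88% overlapped WT H3K9me3. H4K20me3 was listed at 2 loci in KO (EHMT1 and KMT5B) and at 2 others in WT cells (SETDB1 and EHMT2). Of these 4, 2 were longer in KO and 1 was shorter, where 69.1% and 19.9% of 18547 bins were longer and shorter. At the 5′ end H4K20me3 lay within 1 kb at 1 of 9 genes in KO and 1 of 9 in WT cells. Of the WT H3K4me3 intervals of the genome 25.2% overlapped KO H4K20me3 and 10.6% overlapped WT H4K20me3. For both marks the genome shares count overlap with any part of an H3K4me3 interval, which is not the 1-kb measure. The WT H4K20me3 interval at EHMT2 ended 4.73 kb before the 5′ end but lay on the WT H3K4me3 interval of that gene. Every one of the 4 loci was listed in 1 genotype only, so no plain ratio is given. The calls of longer and shorter rest on the 1 kb added to both lengths. In the genome the H4K20me3 lists held 25318 intervals in KO and 8539 in WT cells. The share of bins listed in 1 genotype only was not counted.

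The H4K20me3 differences were set beside the 1 Mb on each side in the same way. Around EHMT1 H4K20me3 covered 413 kb in KO and 75.4 kb in WT cells, a ratio of 5.48, and around EHMT2 200.1 kb in KO and 23.0 kb in WT cells, a ratio of 8.7. With 5 Mb on each side these ratios were 16.6 around EHMT1 and 4.05 around EHMT2. Around KMT5B it covered 161 kb in KO and 162 kb in WT cells, a ratio of 0.994. Around SETDB1 it covered 52.8 kb in KO and 34.6 kb in WT cells, a ratio of 1.53. EHMT1 had its 2 KO-only intervals where the surroundings were longer in KO too. SETDB1 lacked the mark in KO inside the window with 5 kb on each side, while its surroundings had more of it in KO. At KMT5B the surroundings were nearly equal. H3K9me3 was shorter in KO around 8 of the 9 loci, with ratios from 0.225 around SUV39H2 to 0.703 around KDM4B. In the genome 52% of bins of 200 kb with this mark were at least 1.5-fold shorter in KO and 22.7% longer. Its total length was 305.7 Mb in KO and 254.7 Mb in WT cells. The exception among the surroundings was KDM4C, where H3K9me3 covered 58.2 kb in KO and 7.4 kb in WT cells. With 5 Mb on each side KDM4A had a ratio of 1.36 and was on the longer side too, KDM4C had a ratio of 1.99, and the 7 others had ratios from 0.227 to 0.823. At the locus the H3K9me3 ratio was 1.08 at EHMT1 and 1.13 at KDM4B, and with 20 kb on each side the log2 value was below 0 at both (-0.12 at EHMT1 and -0.06 at KDM4B).

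**Figure D5:**
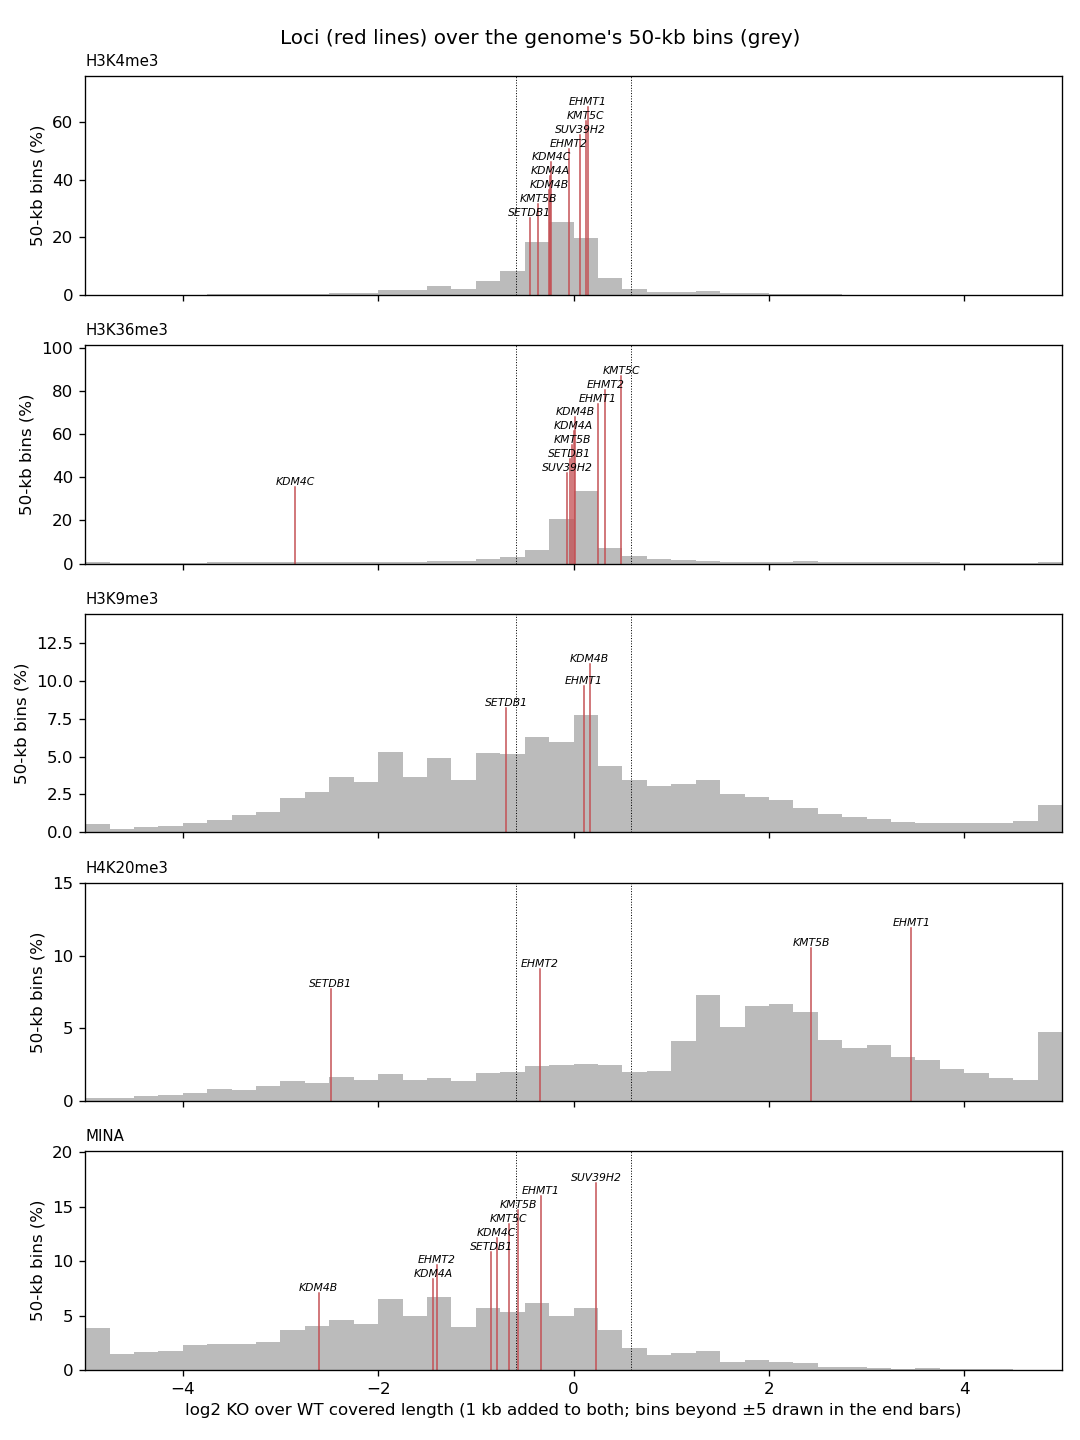
Log2 KO over WT of covered length (1 kb added to both) at the loci (red lines with gene names) over the distribution of 50-kb bins of the genome (grey, percent of bins with an interval), for the 5 antibodies, with dotted lines at 1.5-fold. Loci with no interval in either genotype are left out. H3K4me3 and H3K36me3 loci lie between the dotted lines except KDM4C for H3K36me3. For H3K36me3 EHMT1, EHMT2 and KMT5C lie above the upper quartile of the bins (0.22). The MINA bins spread widely around a median of -1.38, with EHMT2, KDM4A and KDM4B below it and the 6 other loci above.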

How the data were processed

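The labels name BWA, SICER 1.1 and the build hg19 in the submitters' processing notes. The deposited file holds 1 interval list for each of the 10 ChIP libraries and a merged list, which was not used. Interval starts and ends, as deposited by the authors, were the only values: they lie on a 200-bp grid, lists keep gaps of at least 800 bp, and there is no score, height or p-value. Window, false discovery and depth settings, and whether input was subtracted, were not given in the sources used here. Input DNA, whose labels carry no genotype, was not used. A more deeply sequenced library gives more and wider intervals, and that cannot be told apart from a change in a mark. Read depth is unknown.

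Here covered length inside each gene span plus 5 kb was computed per list with Python 3.11.15 and numpy 2.4.6, and the code was tested on simulated lists. A locus or bin counted as longer or shorter in KO at a fold of 1.5, with 1 kb added to both lengths. Bins of 50 kb on chromosomes 1 to 22 and X with an interval in either genotype gave the background. Spans are on hg19 as listed in the definition of the group, and strands and promoters came from RefSeq on GRCh38.p14. An hg19 annotation was not used here, so exons, cell identity markers and other genes of the pathway were not examined. All 9 genes are named. The members, lists and comparisons were chosen with earlier results of these data known. Positions are 1-based.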

Additional observations from a re-analysis of the deposited data

How the results depend on the processing

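No paired analysis was possible because each antibody and genotype has 1 library, and for the same reason none could be left out. Of 11 locus values past 1.5-fold, all 11 stayed past it in the same direction when intervals within 5 kb were merged, 9 with 20 kb on each side, 8 by number of intervals, 7 with no flank and 7 with 5 kb added to both lengths. Of these 11, a change of direction was seen for H4K20me3 at KMT5B with 20 kb on each side (log2 -0.80) and for MINA at SETDB1 with no flank (0.15). Of the values within 1.5-fold, the direction changed with no flank for MINA at KMT5B (1.83) and H3K4me3 at SETDB1 (0.37), with 20 kb on each side for H3K9me3 at EHMT1 (-0.12) and KDM4B (-0.06), and by number of intervals for H3K36me3 at SUV39H2 (0.42) and EHMT1 (-0.32). The number of loci shorter in MINA was 3 with no flank, 3 with 5 kb added and 3 at a fold of 2, and with no flank 1 was longer. With 20 kb on each side 1 locus was shorter in H3K4me3, 1 longer in H3K36me3, 2 shorter in H3K9me3, and 3 longer and 2 shorter in H4K20me3. By number of intervals 2 were shorter in H3K4me3, 1 longer in H3K36me3, 0 shorter in H3K9me3 and 2 shorter in H4K20me3. H3K9me3 had 0 shorter with 5 kb added or at a fold of 2, and H4K20me3 had 1 longer with no flank. Over the 5′ end itself H3K36me3 was listed at 1 locus in KO and 1 in WT, instead of 7 in KO and 5 in WT within 1 kb, and within 5 kb at 7 in KO and 7 in WT. Within 5 kb H3K9me3 was listed at 1 in KO and 1 in WT and H4K20me3 at 2 in WT. With 5 kb added, 48.5% of bins were shorter in MINA in place of 66.9%. The causes were not tested, and unknown depth limits every length.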
